A study of Gallus gallus with 6 samples.

Results

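The messenger RNAs of the ribosome and of the factors that drive translation were followed in hemangioblasts, the common precursors of blood and endothelium, sorted from gastrulating chick embryos. Members were taken by name: genes whose current symbol begins as a cytosolic ribosomal protein (RPL, RPLP or RPS, without the RPS6K kinases), as an initiation factor (EIF1 to EIF6) or as an elongation factor (EEF1 or EEF2). Of 13051 genes on the array, 117 met this rule. They comprised 66 ribosomal proteins, 43 of the large and 23 of the small subunit, and 51 translation factors, a class that also holds kinases, binding proteins and methyltransferases named after a factor. A further 13 symbols met the rule but had no probe set that could be joined to them alone through the gene table, and were not analysed as members. The rule used names and no measured value.

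Chick embryos were electroporated at stage HH3 with a mixture of the Hb-eGFP reporter and pCAGGS-RFP. In Hb-eGFP, a short fragment of the chick Cerberus regulatory region drives eGFP from the human beta-globin minimal promoter; pCAGGS-RFP is expressed in electroporated cells of every tissue. Embryos were harvested at HH5-6, dissociated in pools of 4 and sorted by flow cytometry into Hb-eGFP+ cells and eGFP-/RFP+ cells, here called RFP+ control cells. Both populations thus came from embryos that received both plasmids, and the control was a mixture of the remaining electroporated tissues rather than 1 cell type. Each population was measured on 3 Affymetrix Chicken Genome Arrays from 40 ng of total RNA per array, amplified over repeated cycles. The 3 arrays of a group were labelled as biological replicates, and both populations were sorted from the same dissociated pools, but which samples came from the same pool was not stated.

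Ribosomes are built from ribosomal RNA and a fixed set of proteins, shared between a small subunit that reads the messenger RNA and a large subunit that joins amino acids. Initiation factors bring the initiator transfer RNA and the messenger to the small subunit, and elongation factors then deliver each further transfer RNA and move the ribosome along. In vertebrate cells the messenger RNAs of ribosomal proteins are abundant and share a sequence at their start that places their translation under growth signals, and a few proteins have a second gene copy that is used in some tissues only.

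Levels over whole arrays were alike in both populations. The authors had normalized the arrays to each other, so that like medians are no finding about the cells. Median intensity was 87.69 to 90.27 in Hb-eGFP+ arrays and 89.06 to 91.11 in RFP+ control arrays, and rank correlations (Spearman) between arrays ran from 0.983 to 0.991 within groups and from 0.964 to 0.979 between them. The GFP probe set read 17083 ± 229 in Hb-eGFP+ arrays and 926 ± 80.5 in RFP+ control arrays (SD, n = 3 each). The median of 56 other reporter probe sets was 34.5 to 37.8 in Hb-eGFP+ arrays and 31.9 to 35.2 in RFP+ control arrays, a guide to the level at which a probe set reads little but background. Of 11 markers of hemangioblasts, blood and endothelium, 11 were higher in Hb-eGFP+ cells, whereas 7 of 7 neuroectoderm markers, 5 of 6 markers of paraxial mesoderm and primitive streak, 3 of 5 endoderm markers and 3 of 4 measured markers of non-neural ectoderm were lower. With the mean over probe sets, 10 of the 11 were called higher. The 11 were LMO2, TAL1, SOX7, CD34, FLI1, CDH5, FLT1, KDR, HHEX, SOX18 and SPI1. GATA2, which the study names as expressed in blood and endothelial progenitors, was not in this list. Several of the markers, LMO2, TAL1 and OTX2 among them, had been reported by the study as changed in these same arrays. The counts are therefore no independent check of cell identity. The summed signal of the neuroectoderm markers was 1376 to 1536 in Hb-eGFP+ arrays and 10091 to 10213 in RFP+ control arrays. In such sorted mixtures, fewer cells of a type and less RNA per cell cannot be told apart. Equal amounts of RNA were labelled and the arrays were normalized to each other, so that the values are shares of the RNA and hold no measure of ribosomes per cell.

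Few messenger RNAs of the translation machinery differed between the populations, and those differences were small in most cases. In the limma test over 13051 genes (adjusted p under 0.05), 19.9% of all genes were called in either direction. Among the 66 ribosomal proteins, RPS28 and RPS29 rose and RPL31 fell, which is 4.55% of the class. Among the 51 factors, EIF2A rose and EEF1A2, EIF2AK2 and EIF2AK1 fell, or 7.84%. The corresponding shares of all genes were 9.19% higher and 10.7% lower. At an unadjusted p under 0.05 there were 6 ribosomal proteins, 8 factors and 4425 of all genes. With quantile normalization or median centring, 2 factors were called higher and 3 lower. By the stricter criterion of the study's methods, a lower 90% bound of the fold above 1.7, 3.43% of all genes passed and EEF1A2 was the 1 member to do so; EIF2AK2 missed it with a bound of 1.698.

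**Figure D1:**
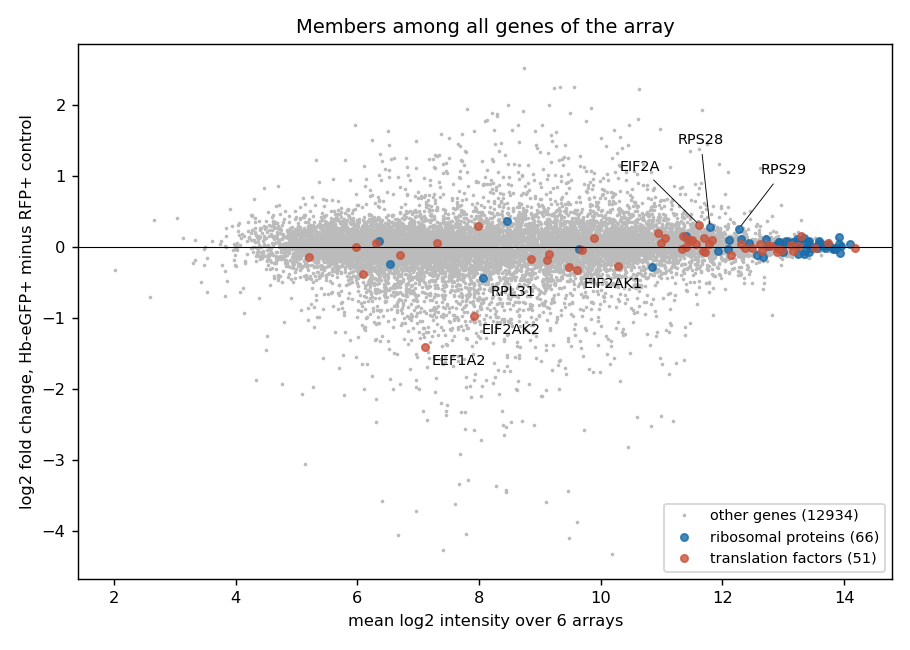
Log2 fold change (Hb-eGFP+ minus RFP+ control, vertical axis) against mean log2 intensity over the 6 arrays (horizontal axis) for 13051 genes. Ribosomal proteins (blue, 66) and translation factors (red, 51) lie mostly at the bright end and close to 0, and the 7 members called by limma are named, of which EEF1A2 (-1.40) and EIF2AK2 (-0.98) lie farthest from 0.

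The size of the differences was small as well as their number. The median log2 fold change (Hb-eGFP+ minus RFP+ control) was 0.02 for ribosomal proteins (-0.01 with quantile normalization), -0.01 for factors (0.00 with median centring) and 0.01 for all genes. Without regard to sign, the median was 0.0541 for ribosomal proteins and 0.0676 for factors, against 0.144 for all genes. For 64 of 66 ribosomal proteins and 47 of 51 factors, the 95% interval of the difference lay within 1.5-fold in both directions, compared with 10347 of 13051 genes. RPL31 and RPS27L were the ribosomal proteins outside it, and EEF1A2, EIF2AK2, EIF4E3 and EIF4ENIF1 the factors. These intervals come from the spread between arrays. They bound the difference in array signal for each gene and do not show that the levels were equal. Most genes of the array were dimmer than these members. Of 457 other genes with a mean log2 intensity above 12, 437 had intervals within 1.5-fold. Their median without regard to sign was 0.0852, beside 0.0485 for the 57 ribosomal proteins and 0.0340 for the 18 factors above 12.

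Taken as a class, the ribosomal proteins did not separate the arrays in the normalized values. Normalizing the arrays to each other may have reduced a shift shared by the brightest genes, which was not tested. The median over the 66 genes of the deviation from each gene's mean was 0.01, 0.03 and 0.00 on the log2 scale in the Hb-eGFP+ arrays, against 0.00, -0.07 and 0.04 in the RFP+ control arrays. For the 51 factors it was -0.04, 0.03 and 0.01 in the Hb-eGFP+ arrays and 0.02, -0.01 and 0.00 in the RFP+ control arrays. In both classes the ranges of the groups overlapped. Of the ribosomal proteins, 42 had a positive and 24 a negative fold change, and of the factors 24 and 27, beside 6823 and 6228 of all genes. The 3 arrays of one group lay beyond all 3 of the other for 16 ribosomal proteins (13 higher, 3 lower in Hb-eGFP+) and 11 factors (5 higher, 6 lower), a pattern met by 39.4% of all genes.

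Brightness went along with these counts. Ribosomal protein probe sets were among the brightest of the array, and 57 of the 66 had a mean log2 intensity above 12, as did 18 factors and 457 other genes. Above that level, 1 ribosomal protein, 0 factors and 53 of the other genes (11.6%) were called. At or below it, 2 of 9 ribosomal proteins and 4 of 33 factors were called, beside 20.3% of all genes in that range. The spread between replicate arrays was also smaller for bright genes. Above 12, the median within-group SD on the log2 scale was 0.0493 for ribosomal proteins, 0.0521 for factors and 0.0555 for the other genes. At or below 12 it was 0.111 for ribosomal proteins, 0.0855 for factors and 0.112 for all genes. Bright and dim together, it was 0.0499 for ribosomal proteins, 0.0737 for factors and 0.109 for all genes. Signals near the top of the scanner range may be compressed, which would make a fold change too small, and the part of brightness in the low counts was not tested. Intensities of different probe sets are not on a common scale, so that no order of abundance among genes is given.

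The large subunit showed 1 called gene among 43, beside 19.9% of all genes, and it was lower. RPL31 had 220.53, 242.48 and 230.46 in the Hb-eGFP+ arrays, against 300.76, 296.97 and 344.09 in the RFP+ control arrays. The groups did not overlap, and the log2 fold change was -0.44 ± 0.08 (SE, limma adjusted p = 0.0090). This probe set was dim for a ribosomal protein. The other probe set of RPL31 was dimmer still and had 147.99, 119.83 and 133.98 in Hb-eGFP+ cells and 121.52, 152.54 and 152.01 in RFP+ control cells, with overlapping groups (-0.08, adjusted p = 0.75 over all probe sets). When the probe sets of each gene were averaged, RPL31 was no longer called (adjusted p = 0.065).

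The remaining 42 large-subunit proteins were not called, and 18 of the 43 fold changes were negative. The most positive were RPL34 (0.15, adjusted p = 0.31), with 2850 ± 56.1 in Hb-eGFP+ cells and 2579 ± 311 in RFP+ control cells (SD, n = 3 each), and RPL35 (0.14, adjusted p = 0.17). RPL35, a protein at the exit of the peptide tunnel, read 16178 ± 338 in Hb-eGFP+ cells and 14696 ± 436 in RFP+ control cells (SD, n = 3 each), and its groups did not overlap. With an intensity trend and robust variances, RPL35 was called (adjusted p = 0.014). RPL14 (-0.12, adjusted p = 0.34) read 5815 ± 295 in Hb-eGFP+ cells and 6311 ± 412 in RFP+ control cells. The stalk proteins RPLP0, RPLP1 and RPLP2, on which elongation factors are bound, had fold changes of -0.03, 0.06 and 0.03. RPL5 and RPL11, which also bind the p53 regulator MDM2 in mammalian cells, had -0.07 and 0.00.

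Several large-subunit proteins have a second gene. RPL22L1, the second copy of RPL22, had 1666 ± 39.3 in Hb-eGFP+ cells and 2043 ± 311 in RFP+ control cells (SD, n = 3 each), with a log2 fold change of -0.28 (adjusted p = 0.12, and 0.046 without RFP+ control replicate 2), while RPL22 had 0.06 (adjusted p = 0.54). RPL3L, the copy used in striated muscle of mammals, was close to the dim end, at 85.2 ± 4.60 in Hb-eGFP+ cells and 101 ± 9.51 in RFP+ control cells (-0.24, adjusted p = 0.10), and RPL3 had -0.01. RPL7 and RPL7L1 had -0.07 and -0.04. RPL39L had 0.07, but no RPL39 was among the symbols that met the rule, so that it formed no pair here. In none of these genes did the copies differ from the RFP+ control by a called change, and the difference between the copies of a pair was not tested. Nor was it tested whether the probe set of a copy also reads its relative.

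In the small subunit, 2 of 23 proteins rose and none fell, a share of higher calls near the 9.19% of all genes. RPS28 had 3998.45, 3934.46 and 3796.21 in the Hb-eGFP+ arrays, compared with 3221.37, 3158.07 and 3306.84 in the RFP+ control arrays. All Hb-eGFP+ arrays were above all RFP+ control arrays, with a log2 fold change of 0.28 ± 0.06 (SE, limma adjusted p = 0.021). RPS29 had 5390.33, 5404.35 and 5390.96 in Hb-eGFP+ cells and 4304.92, 4506.46 and 4746.28 in RFP+ control cells. Its groups were also apart (0.26 ± 0.07, adjusted p = 0.033). RPS28 and RPS29 are small proteins of the head of the small subunit near the messenger RNA path.

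Both calls lay near the threshold. Either call was lost when any 1 of the 3 Hb-eGFP+ arrays, RFP+ control replicate 1 or RFP+ control replicate 2 was left out, with adjusted p up to 0.0695 for RPS28 and 0.12 for RPS29. With the replicate number as a block, the adjusted p was 0.063 for RPS28 and 0.0764 for RPS29, and with the mean over probe sets it was 0.246 for RPS28. Adjusted over all 38439 probe sets, the p was 0.062 for RPS28 and 0.087 for RPS29. The second probe set of RPS28 read 89.8 in Hb-eGFP+ cells and 90.5 in RFP+ control cells, near the array median, and had a fold change of 0.00; RPS29 had 1 probe set.

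RPS27L, the second copy of RPS27 and a p53 target in mammals, had the most positive fold change of all ribosomal proteins without a call. It had 456.44, 379.04 and 371.66 in the Hb-eGFP+ arrays, compared with 282.75, 306.66 and 345.88 in the RFP+ control arrays. The groups did not overlap (0.37, adjusted p = 0.055), and RPS27L was called in 6 of 13 alternative settings. RPS24 (-0.14, adjusted p = 0.35) was the most negative of the small subunit, at 6183 ± 385 in Hb-eGFP+ cells and 6830 ± 699 in RFP+ control cells. RPS6, the phosphorylated target of the S6 kinases, had 15147 ± 577 in Hb-eGFP+ cells and 16099 ± 715 in RFP+ control cells (-0.09, adjusted p = 0.42). RPS3A and RPS20, which together with RPS6 gave the brightest ribosomal protein probe sets, had 0.04 and 0.01. RPS13 was dim through the probe set assigned to it alone, at 84.0 in Hb-eGFP+ and 79.7 in RFP+ control cells, so that its value of 0.08 has little weight.

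**Figure D2:**
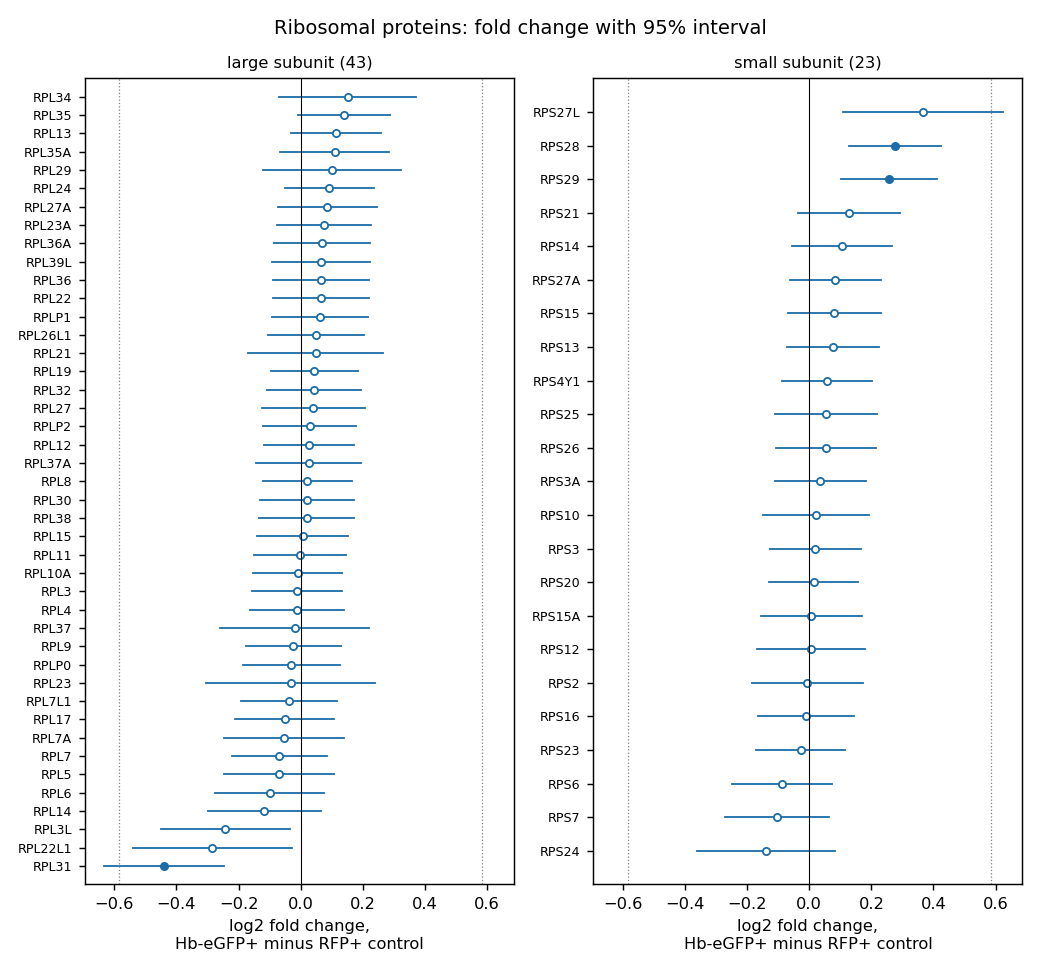
Log2 fold change (Hb-eGFP+ minus RFP+ control, horizontal axis) with 95% interval for 43 large-subunit and 23 small-subunit ribosomal proteins, filled where called by limma and open otherwise; dotted lines mark a 1.5-fold difference. RPL31, RPS28 and RPS29 are filled, and 64 of the 66 intervals lie between the dotted lines.

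Most initiation factors that position the ribosome on the messenger were close to 0. EIF1, EIF1AX and EIF1B, which guard the choice of the start codon, had fold changes of -0.02, 0.03 and -0.18 with no call. EIF1B read 521 ± 22.9 in Hb-eGFP+ and 591 ± 18.2 in RFP+ control cells, without overlap (limma adjusted p = 0.10). Its dimmer probe set had -0.14. The 3 subunits of eIF2, the carrier of initiator transfer RNA, were EIF2S1 (-0.02), EIF2S2 (0.02) and EIF2S3 (0.01). Of eIF2B, the exchange factor that recharges eIF2 with GTP, 4 subunits were measured and 0 called; EIF2B4 had the most positive fold change (0.19, adjusted p = 0.23), at 2101 ± 115 in Hb-eGFP+ and 1845 ± 239 in RFP+ control cells. In eIF3, the scaffold of the initiation complex, 9 subunits ranged from -0.12 (EIF3M) to 0.12 (EIF3B) with 0 called. Of the 16 measured subunits of eIF2, eIF2B and eIF3, 0 were called, beside 19.9% of all genes. For all 16 the 95% interval lay within 1.5-fold. EIF2B5 was dim, at 63.0 in Hb-eGFP+ and 63.3 in RFP+ control cells, so that its interval has little weight. A dimmer probe set of EIF2S3 was called lower and is given below.

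EIF2A was the 1 factor that rose. Despite its name it is not a subunit of eIF2 but a separate protein that can carry initiator transfer RNA to some messengers. Its signal was 3607.01, 3410.76 and 3496.39 in the Hb-eGFP+ arrays, compared with 2842.25, 2793.82 and 2857.14 in the RFP+ control arrays. The lowest Hb-eGFP+ array was above the highest RFP+ control array, and the log2 fold change was 0.31 ± 0.06 (SE, adjusted p = 0.012). Without Hb-eGFP+ replicate 3 the adjusted p was 0.053. EIF2D, another protein of this kind, had 0.16 (adjusted p = 0.18), with 2745 ± 132 in Hb-eGFP+ and 2464 ± 133 in RFP+ control cells. Its dimmer probe sets had -0.26 and 0.03 (limma adjusted p = 0.15 and 0.91 over all probe sets), and which follows the gene was not tested.

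Of 4 kinases that phosphorylate eIF2 and thereby slow initiation under stress, 2 were called lower, beside 10.7% of all genes. EIF2AK3 and EIF2AK4 had fold changes of -0.14 and -0.10 with no call. EIF2AK2, also named PKR and known in mammals as the sensor of double-stranded RNA, had 164.63, 202.71 and 152.84 in the Hb-eGFP+ arrays, against 358.12, 331.77 and 327.75 in the RFP+ control arrays. The Hb-eGFP+ mean was 0.511 of the RFP+ control mean, and the groups were far apart (-0.98 ± 0.11, adjusted p = 0.00078). It was called in all 13 settings (highest adjusted p 0.0066).

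EIF2AK1 is the heme-regulated kinase, which in mammalian erythroid cells matches globin synthesis to heme. It had 676.03, 722.68 and 691.18 in the Hb-eGFP+ arrays and 844.52, 843.85 and 934.55 in the RFP+ control arrays. The groups did not overlap (-0.33 ± 0.07, adjusted p = 0.018). Leaving out Hb-eGFP+ replicate 1 ended the call, as did leaving out Hb-eGFP+ replicate 3, with adjusted p up to 0.071, and adjusted over all probe sets the p was 0.051. EIF2AK3, the kinase of the endoplasmic reticulum, read 35.1 in Hb-eGFP+ and 38.7 in RFP+ control cells, within a few units of the reporter median, and its value (-0.14) is not informative.

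EIF2AK4, the sensor of uncharged transfer RNA, gave different values from different probe sets. The brightest probe set had 513.63, 575.70 and 551.29 in the Hb-eGFP+ arrays and 607.14, 590.21 and 561.09 in the RFP+ control arrays, with overlapping groups (-0.10, adjusted p = 0.38). Another had 233.73, 245.24 and 265.34 in the Hb-eGFP+ arrays, against 640.38, 578.80 and 608.58 in the RFP+ control arrays. Here the groups were well separated (-1.30 ± 0.09, adjusted p = 0.00014 over all probe sets). The remaining probe set was dim and read 84.0 in Hb-eGFP+ and 73.3 in RFP+ control cells (0.19, adjusted p = 0.52). Which of these follows the gene was not tested.

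**Figure D3:**
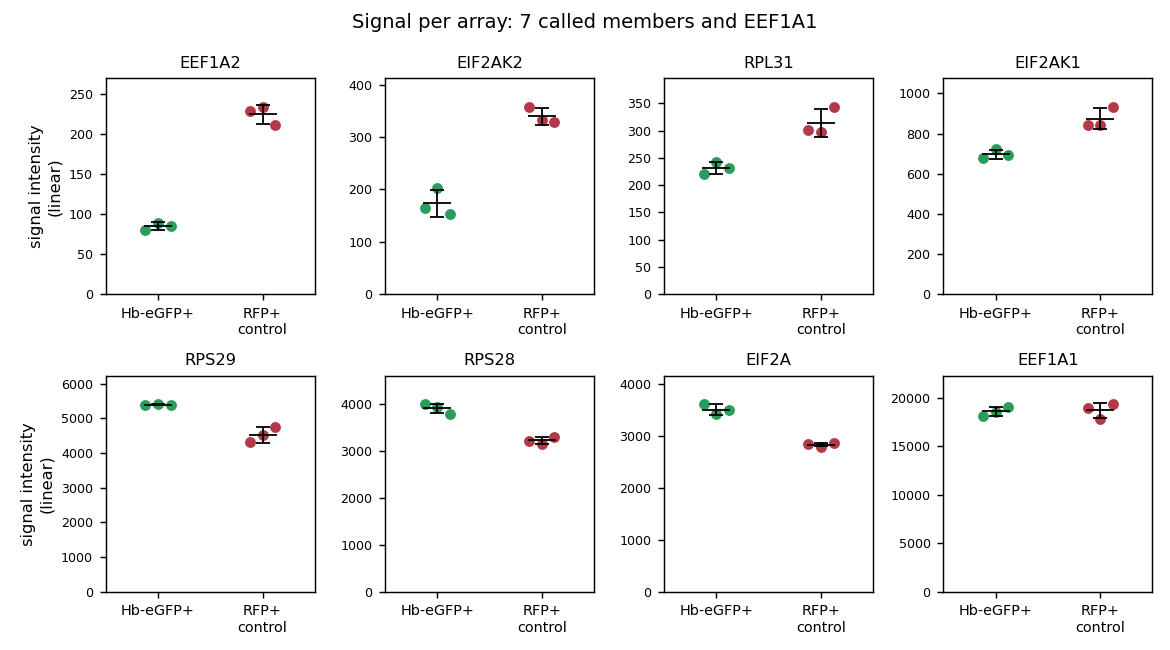
Signal intensity (linear, vertical axis from 0) of the 7 called members and of EEF1A1 on each array, Hb-eGFP+ in green and RFP+ control in red, with the mean and SD of 3 arrays as black bars. EEF1A2 and EIF2AK2 are far lower in Hb-eGFP+ cells, the other 5 called members differ by less than 1.5-fold in the ratio of means, and EEF1A1 overlaps.

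The factors that bind the cap and unwind the messenger showed 0 calls among 10 eIF4 genes, beside 19.9% of all genes. The cap-binding protein EIF4E had 0.04, its relative EIF4E2 had 0.13 (989 ± 67.9 in Hb-eGFP+ and 902 ± 19.2 in RFP+ control cells) and EIF4E3 had -0.39 with adjusted p = 0.23 (0.043 without RFP+ control replicate 2). EIF4E3 was dim, with 54.46, 61.52 and 63.58 in the Hb-eGFP+ arrays and 107.14, 57.57 and 77.12 in the RFP+ control arrays, and its interval is wide. The helicase EIF4A2 and the exon junction protein EIF4A3 had 0.05 and 0.03. EIF4EBP1 and EIF4EBP2, repressors of EIF4E under the mTOR pathway, each had 0.10 and no call. Among late initiation factors, EIF5 had 0.15 (adjusted p = 0.13), with 10607 ± 194 in Hb-eGFP+ and 9569 ± 121 in RFP+ control cells. Its groups did not overlap, and with an intensity trend and robust variances it was called (adjusted p = 0.011). EIF5B had -0.18 (adjusted p = 0.24). Its dimmer probe sets had 0.36 and -0.35 (adjusted p = 0.086 and 0.14 over all probe sets), and which follows the gene was not tested. EIF5A2, a factor that helps ribosomes past proline-rich stretches, had -0.04, and EIF6, which keeps the subunits apart, had -0.03.

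The largest difference of all members was in elongation. EEF1A1 and EEF1A2 encode near-identical forms of eEF1A, the carrier of aminoacyl transfer RNA, and in mammals EEF1A1 is used widely whereas EEF1A2 is restricted to neurons, muscle and a few other adult cells. EEF1A2 had 79.68, 89.17 and 85.50 in the Hb-eGFP+ arrays, against 227.98, 234.03 and 211.20 in the RFP+ control arrays. Every Hb-eGFP+ array was below every RFP+ control array, and the ratio of the means was 0.378 (-1.40 ± 0.08, 95% interval -1.58 to -1.23, adjusted p = 1.9e-05). The call held in all 13 settings, with a highest adjusted p of 0.00047. In Hb-eGFP+ cells the signal was near the array median, so that the true fold could be larger.

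EEF1A1, the brightest of the factors, had 18125, 18548 and 19037 in the Hb-eGFP+ arrays, compared with 18954, 17820 and 19315 in the RFP+ control arrays. The groups overlapped, with a log2 fold change of -0.01 (adjusted p = 0.94), and its 95% interval lay within 1.5-fold. A test of the difference between EEF1A1 and EEF1A2 was not run, since their probe sets differ in brightness. EEF2, the translocase, had 11639 ± 446 in Hb-eGFP+ and 11736 ± 128 in RFP+ control cells (-0.01). EEF1B2 and EEF1G, subunits of the exchange factor for eEF1A, had -0.04 and 0.08, and EEF1E1, a protein of the multisynthetase complex, had -0.05.

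None of the 3 measured enzymes that modify elongation factors was called, beside 19.9% of all genes. EEF1AKMT1, a lysine methyltransferase of eEF1A, had 280 ± 16.9 in Hb-eGFP+ and 230.1 ± 19.3 in RFP+ control cells (0.29, adjusted p = 0.056). Its groups did not overlap, and it was called in 6 of 13 settings. EEF2KMT, the methyltransferase of EEF2, had 650 ± 31.7 in Hb-eGFP+ and 792 ± 72.1 in RFP+ control cells (-0.28, adjusted p = 0.061) and was called in 4 settings. EEF2K, the inhibitory kinase of EEF2, was dim (81.1 in Hb-eGFP+ and 78.1 in RFP+ control cells) and had 0.05.

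**Figure D4:**
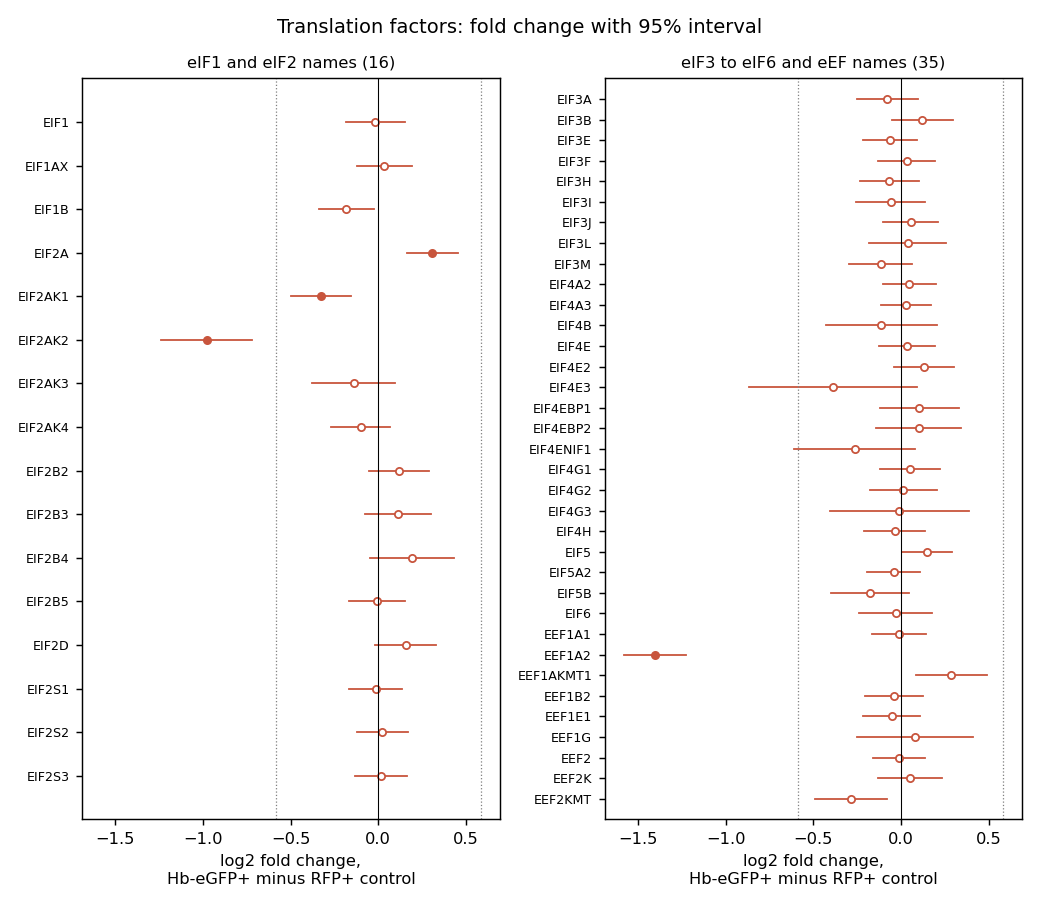
Log2 fold change (Hb-eGFP+ minus RFP+ control, horizontal axis) with 95% interval for the 51 translation factors, 16 with eIF1 or eIF2 names at left and 35 with eIF3 to eIF6 or eEF names at right, filled where called by limma and open otherwise; dotted lines mark a 1.5-fold difference. EIF2A is filled on the positive side, EIF2AK1, EIF2AK2 and EEF1A2 on the negative side.

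Many members were also measured by further, dimmer probe sets. Of 73 further probe sets of ribosomal proteins, 1 was higher and 0 were lower, and of 39 of factors 1 was higher and 3 were lower, where 9.07% of all probe sets were called in either direction. The ribosomal one belonged to RPL24 and was dim (55.9 in Hb-eGFP+ and 40.4 in RFP+ control cells, 0.46, adjusted p = 0.041), while the representing probe set of RPL24 had 0.09. Among the factors, the second probe set of EEF1AKMT1 had 141.03, 163.87 and 127.56 in the Hb-eGFP+ arrays and 95.42, 114.36 and 86.34 in the RFP+ control arrays, higher like the first but now called (0.55, adjusted p = 0.049). That of EIF2S3 had 540.89, 541.61 and 558.38 in the Hb-eGFP+ arrays, against 747.00, 654.35 and 756.55 in the RFP+ control arrays (-0.39, adjusted p = 0.032), unlike the bright one. A dim probe set of EIF1AX (-0.54, adjusted p = 0.028) and that of EIF2AK4 described above completed the lower ones.

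Genes that work beside the translation machinery were compared by lists. Of 18 measured genes of the ribosome and of translation that the name rule did not reach, PABPC4 rose and the median was -0.05. This is 5.56% called, beside 19.9% of all genes in either direction. PABPC4, a poly(A)-binding protein, had 1816.69, 1644.04 and 1614.23 in the Hb-eGFP+ arrays and 1139.75, 1107.02 and 1111.02 in the RFP+ control arrays. The groups were well apart (0.59 ± 0.07, adjusted p = 0.0010), and its relative PABPC1 had -0.06. In each of the 13 settings, 1 gene of this list was called higher and 0 lower. The release factor ETF1 had 0.15 (adjusted p = 0.18).

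Ribosome biogenesis, with 67 measured genes, had 4 higher, 0 lower and a median of 0.06, so that 5.97% were called in either direction, beside 19.9% of all genes. The called genes were NHP2 (0.83, adjusted p = 0.018), a protein of the RNAs that guide pseudouridylation, NOC4L (0.46, adjusted p = 0.022), NIP7 (0.26) and DDX21 (0.23). NHP2 had 1361.11, 1115.05 and 1096.44 in the Hb-eGFP+ arrays and 538.01, 620.05 and 884.47 in the RFP+ control arrays. With 1 array left out, 0 to 4 genes of the list were called higher and 0 to 1 lower. The count of higher ones was 0 when Hb-eGFP+ replicate 1 was left out, 1 without RFP+ control replicate 2 or 3 or Hb-eGFP+ replicate 3, and 2 when RFP+ control replicate 1 was left out. With an intensity trend and robust variances, 10 were called higher, beside 1408 of 13051 genes in that setting.

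Of 67 mitochondrial ribosomal proteins, 8 rose and MRPL19 fell, 55 had a positive fold change and the median was 0.08. Among all genes, 6823 of 13051 had a positive fold change. MRPL43 had the smallest adjusted p, with 881.53, 966.17 and 842.25 in the Hb-eGFP+ arrays and 528.07, 564.41 and 494.49 in the RFP+ control arrays (0.76, adjusted p = 0.00064). MRPS31 came next (0.39, adjusted p = 0.0083), at 3796 ± 219 in Hb-eGFP+ and 2899 ± 81.7 in RFP+ control cells. MRPL19 was dim (-0.40, adjusted p = 0.033). The 8 higher and 1 lower of 67 stand beside 9.19% higher and 10.7% lower among all genes. Leaving out RFP+ control replicate 1, or Hb-eGFP+ replicate 1 or 3, gave 4 higher, and leaving out RFP+ control replicate 2 gave 5. With an intensity trend and robust variances 14 were higher, beside 1408 of 13051 genes in that setting.

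The list of cytosolic aminoacyl-tRNA synthetases, which charge transfer RNAs, held 20 measured genes, 1 of them a member by name and not a synthetase. In it, RARS (0.25, adjusted p = 0.043) and YARS (0.33, adjusted p = 0.043) rose, and the median was 0.14. This is 10% of the list, beside 9.19% of all genes called higher. With any 1 array left out the counts were 0 or 1 higher and 0 or 1 lower. An intensity trend and robust variances gave 7 higher, beside 1408 of 13051 genes in that setting. Of 25 genes through which growth signals act on translation, 5 rose and 2 fell, or 28% in either direction, beside 19.9% of all genes. MYCN, a transcription factor that promotes ribosome synthesis in mammalian cells, had 1243.77, 1095.54 and 1245.10 in the Hb-eGFP+ arrays, against 4196.99, 4112.67 and 4094.90 in the RFP+ control arrays. The groups were far apart (-1.79 ± 0.07, adjusted p = 5.8e-06). MYC, its relative, was higher, at 3695 ± 162 in Hb-eGFP+ and 3150 ± 87.6 in RFP+ control cells (0.23, adjusted p = 0.0499). SESN1, an inhibitor of mTOR complex 1, rose (0.45, adjusted p = 0.010), and PDCD4, an inhibitor of the EIF4A helicase, fell (-0.38, adjusted p = 0.011). The other called genes, MKNK1 (0.35), RPS6KA1 (0.37) and TSC1 (0.28), were higher. With 1 array left out, 2 genes of this list were called lower, and 1 was called higher without RFP+ control replicate 2 or Hb-eGFP+ replicate 1 or 2, 2 without Hb-eGFP+ replicate 3 or RFP+ control replicate 3, and 4 without RFP+ control replicate 1. Most markers of neuroectoderm, paraxial mesoderm and primitive streak, endoderm and non-neural ectoderm were lower, as were MYCN, EEF1A2 and EIF2AK2. The part of these tissues in the results was not tested.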

How the data were processed

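RNA from 3 Hb-eGFP+ and 3 RFP+ control samples was hybridized to Chicken Genome Arrays of Affymetrix. Scanning used GCOS 1.4 (from the submitters' processing notes), and the authors normalized the data in dChip and deposited a signal intensity per probe set, on a linear scale, from a model that uses the perfect-match probes; the sources used here do not give whether a background was removed. All 6 value columns were used and 0 columns were left without a sample. The deposited intensities, none below 1, were converted to log2 values without further normalization.

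Names came from the platform annotation (27168 of 38439 probe sets with 1 gene, 177 with several, 11094 not named here), and 26853 probe sets matched the RefSeq gene table of the assembly GRCg7b by gene ID, used for names only. Where a gene had several probe sets, the one brightest by mean log2 over the arrays stood for it. The groups were compared with limma 3.58.1 (lmFit and eBayes, two-sided, group as the only term) in R 4.3.3 over 13051 genes, and over 38439 probe sets for further probe sets, and p-values adjusted by Benjamini-Hochberg were called under 0.05. The criterion of the methods, a lower 90% bound above 1.7, was computed from the spread between arrays. Tables and figures were made with Python 3.11.15, pandas 2.3.3, NumPy 2.4.6 and matplotlib 3.10.9. The calculations were tested on simulated data.

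The members and the gene lists were chosen with earlier results of these data known. The interval limit of 1.5-fold and the split at a mean log2 intensity of 12 were chosen after the values were seen. Named members were the called ones, the 5 largest fold changes of each class and direction, the 3 brightest of each class and gene copies; of each other list, the 2 genes with the smallest adjusted p. Any further gene was chosen after its values were seen. Synthetase symbols were also matched by their older form without a final 1. RPSA is named RPSAP58 in the table. The alternatives changed the normalization (quantile or median centring), dropped dim probe sets, averaged the probe sets of a gene, added 50 to each intensity, let eBayes follow an intensity trend with robust variances, blocked on the replicate number, or left out 1 array at a time. Deviations of same-numbered samples from their group means correlated at -0.159, -0.0738 and 0.193. Between samples of unlike number the values ran from -0.198 to 0.255. With 3 arrays a group, such values cannot decide whether the numbers pair the samples. No source ties a number to a pool, so the main fit had no block. The p-values rest on the spread between 3 arrays a group, which eBayes draws toward a variance shared by all genes. For members with little spread this raised the SE. RPL10A had a within-group SD of 0.0268 on the log2 scale and an SE of 0.0613, and EIF5 had 0.0227 and 0.0607. The number of arrays limits the precision.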

Additional observations from a re-analysis of the deposited data

How the results depend on the processing

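No called member changed direction under any alternative. Of 454 combinations of 35 named members with an alternative, 417 stayed on the same side of the threshold, 17 lost the call and 20 gained one. EEF1A2 and EIF2AK2 were called throughout. The count of ribosomal proteins called higher (2 as reported) was 4 with an intensity trend and robust variances, 1 with the mean over probe sets, 0 with the lower 90% bound above 1.7 and 0 to 3 with 1 array left out; the count called lower (1) was 0 with the mean over probe sets, 0 with the lower bound and 1 to 2 with 1 array left out. The count of factors called higher (1) was 2 with quantile normalization, median centring, dim probe sets removed, an offset of 50 or the mean over probe sets, 3 with an intensity trend and robust variances, 0 with the lower bound and 0 to 1 with 1 array left out. The count of factors called lower (3) was 1 with the lower bound and 2 to 5 with 1 array left out, the highest without RFP+ control replicate 2. The median fold change moved between -0.01 and 0.05 for ribosomal proteins and between -0.02 and 0.01 for factors. Over all genes, 1200 higher and 1396 lower calls became 742 and 921 without Hb-eGFP+ replicate 3, and 767 and 977 without Hb-eGFP+ replicate 1. They became 1408 and 1473 with an intensity trend and robust variances. The causes were not tested.

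With the replicate block, 0 ribosomal proteins were called higher and 1 lower, 1 factor higher and 3 lower, and 896 and 1106 of all genes were called higher and lower. RPS28 and RPS29 were the members that lost their call with it. The labels do not tie a replicate number to a pool of embryos. The list counts, given in the report for the alternatives that moved them most, became 2 higher for ribosome biogenesis, 4 for mitochondrial ribosomal proteins and 0 for synthetases with this block. Signal over background limits the dim members, among them RPS13, EIF2AK3, EIF4E3 and RPL3L.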

Other observations

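Some probe sets carry the name of a translation gene but were outside the name rule, because their gene ID was not in the gene table or because they belong to several genes. They were not tested as members, and their values are given as deposited. EIF3G, a subunit of eIF3, had 4524.74, 4265.44 and 4071.66 in the Hb-eGFP+ arrays and 3901.04, 3893.90 and 3884.89 in the RFP+ control arrays, without overlap. EEF1D, a subunit of the exchange factor for eEF1A, had 13613.56, 14182.21 and 13937.99 in the Hb-eGFP+ arrays and 14319.69, 14000.14 and 14327.02 in the RFP+ control arrays, which overlapped. A probe set shared by RPS13 and GNAL had 13754.53, 14045.38 and 13398.39 in the Hb-eGFP+ arrays and 13938.83, 13169.47 and 13920.86 in the RFP+ control arrays, also with overlap, and was far brighter than the one assigned to RPS13 alone. A probe set shared by EIF3D and FOXRED2 had 5082.26, 5591.77 and 5238.63 in the Hb-eGFP+ arrays and 5640.03, 5479.44 and 5044.31 in the RFP+ control arrays, with overlapping ranges.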
